A study of Rattus norvegicus with 11 samples.

Results

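The T cells of the rat kidney described here are the cells that the authors named T cell in their deposited per-cell table. They numbered 12698 of 114615 kidney cells, from 11 male ZSF1 rats profiled by droplet single-cell RNA sequencing (10x, 3′ chemistry). ZSF1 rats carry leptin receptor alleles that make the obese animals a model of metabolic and kidney disease. The groups were 4 lean rats, 4 obese rats given vehicle and 3 obese rats given enalapril in the drinking water, an inhibitor of angiotensin-converting enzyme. The animals were 12 weeks old on arrival and ate a high energy chow. The labels give one strain string with both leptin receptor alleles for every animal. The sources used here do not give the age at collection, the enalapril dose or whether the lean rats drank the vehicle. Kidneys were perfused, digested and cleared of debris and dead cells before 10000 cells were loaded per animal, so recovery through digestion and dead cell removal is part of every share. Each animal was 1 sample.

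T cells are lymphocytes of adaptive immunity that recognise antigen through a T cell receptor coupled to the CD3 complex, of which Cd3e and Cd3d encode subunits. In the kidney they reside in small numbers between the tubules and collect there, together with monocytes, macrophages and B cells, in many chronic kidney diseases. Cytokines from T cells act on macrophages and on tubular epithelium, and the renin-angiotensin system that enalapril blocks also acts on immune cells.

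The deposited table holds the name, UMI total, gene total, mitochondrial share, cell cycle scores and map position of each cell, and no gene values. Cd3e and Cd3d were therefore not analysed here, and T cell subsets such as helper and cytotoxic cells were not named. The authors' 21 names include 5 immune types, which are T cell, B cell, Mono (monocytes), Macro (macrophages) and the joint Mono/Macro. No name stands for natural killer cells, neutrophils or dendritic cells, and whether such cells lie under the name T cell was not tested. T cells were the most numerous of the immune types over all animals, with 12698 cells beside 8008 monocytes, 3859 macrophages, 1276 B cells and 1106 Mono/Macro cells.

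Before the results, 2 animals stood apart in depth. T cells of Lean 2 had a median of 328 UMIs and those of Obese+enalapril 1 a median of 951.5, while the other 9 animals had medians of 1633.5 to 3083. Lean 2 also had the fewest T cells, 157, against 280 to 2678 in the other animals. No T cell of Lean 2 reached 1000 UMIs, and 44.0% of those of Obese+enalapril 1 did, against 89.4% to 93.0% elsewhere. In all, 354 T cells (2.79%) carried a barcode that also occurred in another animal, and 18 barcodes were T cells in more than 1 animal. Of the 1654 pairs of cells that shared a barcode, 238 had the same type and 0 had the same UMI and gene totals.

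T cells made up a larger share of kidney cells in obese than in lean rats. They were 9.80%, 3.71%, 9.65% and 4.33% of all cells in Lean 1 to 4. The share was 15.2%, 14.1%, 16.2% and 14.5% in Obese 1 to 4. In Obese+enalapril 1 to 3 it was 7.57%, 9.48% and 10.1%. All 4 obese rats lay above all 4 lean rats, all 3 treated rats lay below all 4 obese rats, and treated and lean rats overlapped. The share had no overlap in this direction for 25% of the 20 tested cell types in the first comparison and for 15% in the second. The exact Clopper-Pearson intervals (95%) were 9.25% to 10.4% in Lean 1 and 13.3% to 14.96% in Obese 2, narrow beside the spread of the lean animals and comparable to that of the obese animals.

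The lean animals fell into a higher and a lower pair, so their spread was the widest. The group means were 6.87% ± 3.30 (SD, n = 4) in lean, 15.02% ± 0.899 (SD, n = 4) in obese and 9.06% ± 1.33 (SD, n = 3) in treated rats. Against lean rats, the share rose in obese rats by 1.13 ± 0.39 (SE) on the log2 scale (edgeR quasi-likelihood test, adjusted p = 0.0195), where 60% of the 20 types passed and 30% passed as higher. The difference between treated and obese rats was -0.73 ± 0.42 (edgeR, adjusted p = 0.340), where 0% of types passed. Treated rats differed from lean rats by 0.40 ± 0.42 (edgeR, adjusted p = 0.503), where 15% of types passed. The increase in obese rats was no longer past the threshold when Lean 2 (0.92, edgeR, adjusted p = 0.0715) or Lean 4 (0.96, adjusted p = 0.0509) was left out. The same held when cells were limited to a minimum of 1000 UMIs (0.93, edgeR, adjusted p = 0.125) or to a mitochondrial share below the median of all cells (1.23, adjusted p = 0.0624). In the fit with at least 1000 UMIs, Lean 2 was kept with 0 T cells. In these shares, more T cells and fewer cells of other types cannot be told apart.

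**Figure D1:**
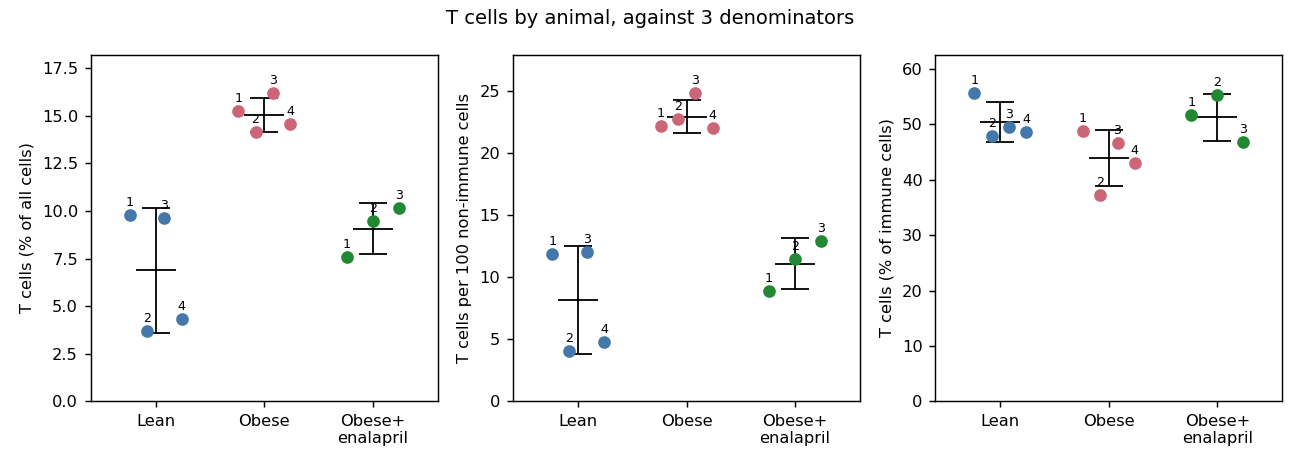
T cells of each animal as % of all cells (left), per 100 non-immune cells (middle) and as % of immune cells (right). Points are animals numbered as in the labels, and bars are the group mean ± SD. Obese rats (14.1% to 16.2%) lie above all others in the left panel, and the groups overlap in the right panel.

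Set against the non-immune cells of the same animal, T cells were more frequent in obese rats and less frequent in treated than in untreated obese rats. There were 11.9, 4.02, 12.0 and 4.75 T cells per 100 non-immune cells in Lean 1 to 4. In Obese 1 to 4 there were 22.1, 22.7, 24.8 and 22.0. Obese+enalapril 1 to 3 had 8.86, 11.4 and 12.9. The untreated obese animals stood within a narrow band above the other 7 animals, and 2 of the 3 treated animals lay between the lower and the higher lean pair.

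The means were 8.16 ± 4.37 (SD, n = 4) in lean, 22.9 ± 1.30 (SD, n = 4) in obese and 11.1 ± 2.05 (SD, n = 3) in treated rats. T cells rose by 1.49 ± 0.45 (log2, SE) in obese against lean rats (edgeR over the 5 immune types, adjusted p = 0.00252), and 100% of the 5 types passed as higher. They fell by 1.05 ± 0.49 in treated against obese rats (edgeR, adjusted p = 0.0475), where 80% of the types passed as lower. Treated and lean rats differed by 0.44 ± 0.47 (edgeR, adjusted p = 0.548), where 20% of the types passed. Since these types share their denominator, the spread that edgeR borrows is not from independent types, and the p-values may be too small.

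The increase in obese rats passed without each of the 11 animals in turn, with values from 1.26 to 1.73. The decrease with enalapril did so in only 4 of 11, with values from -1.17 to -0.91. It was lost without Lean 1, any single obese animal, Obese+enalapril 1 or Obese+enalapril 2, with adjusted p from 0.0564 to 0.112 by edgeR, and when only cells with a mitochondrial share below the median of all cells were counted (-1.09, adjusted p = 0.132). An exact two-sided permutation test of the log2 values gave a difference of 1.66 for obese against lean rats (p = 0.0286, the smallest that 4 against 4 animals allow) and -1.06 for treated against obese rats (p = 0.0571, the smallest that 3 against 4 allow), with an adjusted p of 0.0857 for each over the 3 comparisons. That adjustment cannot go below 0.0571 with these group sizes.

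All of the other immune types rose in obese rats on this scale. All of them were lower in treated than in obese rats, and all but macrophages passed the threshold there. Obese against lean rats differed by 3.77 for B cells, the antibody-producing lineage, by 2.50 for Mono/Macro, by 2.03 for monocytes and by 1.32 for macrophages, beside 1.49 for T cells. For treated against obese rats the values were -1.82 for monocytes (adjusted p = 0.00413), -1.40 for Mono/Macro (adjusted p = 0.0207), -1.25 for B cells (adjusted p = 0.0278) and -0.94 for macrophages (edgeR, adjusted p = 0.0608), beside -1.05 for T cells. Both comparisons use the same obese animals, so their opposite signs are not independent of each other. The T cell value was larger in size than that of macrophages and smaller than those of the other 3 types in each comparison, and whether it differs from the other types in this fit was not tested.

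Within the immune cells, T cells held 37.3% to 55.6% in each animal, and no difference between the groups passed the test. T cells were 55.6%, 47.9%, 49.5% and 48.5% of immune cells in Lean 1 to 4. The values in Obese 1 to 4 were 48.7%, 37.3%, 46.6% and 43.0%, and those in Obese+enalapril 1 to 3 were 51.7%, 55.3% and 46.8%. The lowest values were in obese animals, of which 3 of 4 lay below all lean animals, and Obese 1 lay among the lean values. Obese rats differed from lean rats by -0.20 ± 0.13 (log2, SE, edgeR, adjusted p = 0.215), where 20% of the 5 immune types passed. Treated rats differed from obese rats by 0.22 ± 0.14 (edgeR, adjusted p = 0.373), where 0% passed, and from lean rats by 0.02 ± 0.14 (edgeR, adjusted p = 0.876), where 20% passed. The type that passed was B cells, which rose within immune cells by 2.04 ± 0.54 in obese rats (edgeR, adjusted p = 0.0167) and by 1.94 ± 0.57 in treated rats (edgeR, adjusted p = 0.0314), each against the same lean animals.

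Ratios of T cells to 1 other immune type need no common denominator, and 9 of them (3 types by 3 comparisons) were tested together. With these group sizes the exact permutation p, adjusted over the 9 tests, cannot go below 0.0571, so no ratio could pass 0.05 whatever its values. T cells outnumbered B cells in every animal, most of all in lean rats. There were 78, 22.4, 43.7 and 28 T cells per B cell in Lean 1 to 4. In Obese 1 to 4 the ratio was 10.9, 8.81, 22.0 and 4.52, and in Obese+enalapril 1 to 3 it was 15.6, 14.9 and 6.32. Every obese and every treated animal lay below every lean animal, Lean 2 (22.4) and Obese 3 (22.0) being nearly level. The log2 ratio differed by -1.95 between obese and lean rats (exact permutation p = 0.0286, adjusted p = 0.257) and by -1.75 between treated and lean rats (exact permutation p = 0.0571, adjusted p = 0.257). It differed by 0.20 between treated and obese rats (exact permutation p = 0.857, adjusted p = 0.914). Lean ratios rest on 14, 7, 17 and 10 B cells in Lean 1 to 4.

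Monocytes are blood-derived precursors of macrophages and dendritic cells, and T cells exceeded them in all but 1 animal. The ratio of T cells to monocytes was 2.11, 1.71, 1.74 and 2.20 in Lean 1 to 4. It was 2.05, 0.957, 1.39 and 1.28 in Obese 1 to 4 and 1.52, 3.18 and 2.44 in Obese+enalapril 1 to 3. The groups overlapped, with 3 of 4 obese animals below all lean animals and 2 of 3 treated animals above all obese animals. The log2 ratio differed by -0.50 between obese and lean rats (exact permutation p = 0.0857), by 0.74 between treated and obese rats (p = 0.114) and by 0.24 between treated and lean rats (p = 0.457), and the adjusted p was 0.257 for the first 2 of these.

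Macrophages are phagocytes that also present antigen to T cells. T cells per macrophage were 3.65, 2.85, 2.71 and 1.90 in Lean 1 to 4, 2.78, 2.47, 3.71 and 4.28 in Obese 1 to 4, and 6.44, 2.77 and 2.23 in Obese+enalapril 1 to 3. All groups overlapped, and the highest value came from Obese+enalapril 1, the shallower treated library. The log2 ratio differed by 0.25 between obese and lean, by 0.08 between treated and obese and by 0.33 between treated and lean rats (exact permutation p = 0.4, 0.914 and 0.571). For the joint Mono/Macro type, given as values only, the ratio was 9.24 to 26 in lean, 8.44 to 11.3 in obese and 8.32 to 17.2 in treated rats.

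**Figure D2:**
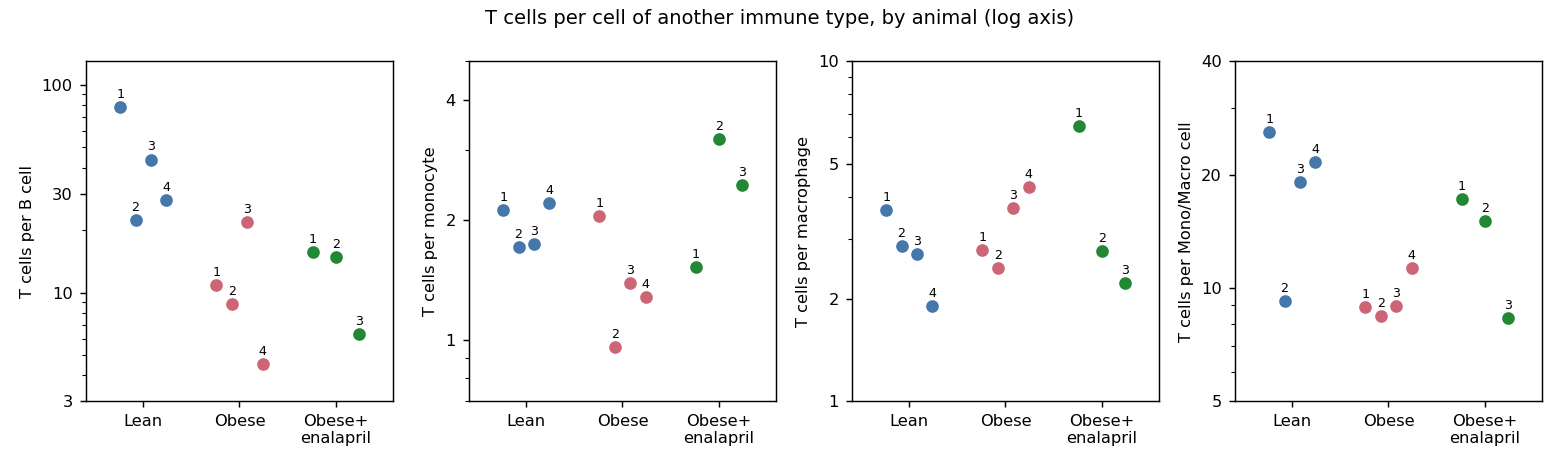
T cells per B cell, per monocyte, per macrophage and per Mono/Macro cell of the same animal, each on a logarithmic axis, with animals numbered as in the labels. All lean animals lie above all obese and treated animals in the B cell panel (22.4 to 78 against 4.52 to 22.0), and groups overlap in the other panels.

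The UMI and gene totals of single T cells varied widely within each group. Over all 12698 T cells the UMI total ran from 231 to 16502 with a median of 2225, and the gene total from 156 to 2930 with a median of 878. Median UMIs were 1633.5, 328, 2423 and 2266.5 in Lean 1 to 4, 1922, 2332, 3083 and 3070 in Obese 1 to 4, and 951.5, 2388 and 1936 in Obese+enalapril 1 to 3. The ranges overlapped in every comparison. The log2 median differed by 0.96 ± 0.61 (SE) between obese and lean rats (limma, adjusted p = 0.279), by -0.64 ± 0.66 between treated and obese rats (adjusted p = 0.930) and by 0.32 ± 0.66 between treated and lean rats (adjusted p = 0.708), where 0% of the 18 or 19 types tested passed in each. Leaving out Lean 2 lowered the first difference to 0.30, and leaving out Obese+enalapril 1 brought the second to -0.25. RNA content and sequencing depth cannot be told apart in these totals.

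Relative to the median of all cells in the same animal, T cell UMI totals were low in all 3 treated rats. The ratio of the T cell median to the animal's median UMI total was 1.15, 0.806, 1.09 and 1.10 in Lean 1 to 4 and 0.991, 1.14, 0.997 and 1.22 in Obese 1 to 4. It was 0.841, 0.872 and 0.777 in Obese+enalapril 1 to 3. All 3 treated animals lay below all 4 obese animals, and Lean 2 lay among the treated values. For plain median UMIs, treated and obese rats were fully apart in 0% of 16 cell types. The ratio was not taken for other cell types, so whether this pattern is particular to T cells is not known. The ratio was chosen after the values were seen and was not tested, and its denominator changes with the make-up of each kidney sample. Against monocytes of the same animal the groups overlapped, with a log2 difference in median UMIs of -0.16 to 0.12 in treated, -0.065 to 0.056 in obese and 0.020 to 0.29 in lean rats. Mean median UMIs were likewise lower in treated than in obese rats for monocytes (1758 against 2597) and macrophages (1800 against 2708), beside 1758.5 against 2602 for T cells.

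T cells of Lean 2 had a median of 210 genes, the lowest of all animals. The others had 689, 970 and 922.5 in Lean 1, 3 and 4, 758 to 1162 in the obese rats and 471 to 974 in the treated rats. The log2 median differed by 0.69 ± 0.48 between obese and lean rats (limma, adjusted p = 0.386), by -0.53 between treated and obese rats (adjusted p = 0.938) and by 0.17 between treated and lean rats (adjusted p = 0.858), with 0% of types past the threshold in each. The first difference was 0.19 without Lean 2, and the second was -0.27 without Obese+enalapril 1.

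Genes per T cell were also compared at like depth. Among T cells with 1000 to 2000 UMIs, the median was 659, 784.5 and 788.5 genes in Lean 1, 3 and 4, since Lean 2 had 0 such cells and dropped out of this fit. Medians were 670.5, 707.5, 772.5 and 732 in Obese 1 to 4 and 569, 785 and 596 in Obese+enalapril 1 to 3. Treated animals 1 and 3 were the lowest of all 10, and treated animal 2 was among the highest. Obese rats differed from lean rats by -0.04 ± 0.10 (log2, limma, adjusted p = 0.823), where 6.67% of 15 types passed. Treated rats differed from obese rats by -0.16 ± 0.10 (adjusted p = 0.528), where 0% of 17 types passed, and from lean rats by -0.20 ± 0.10 (adjusted p = 0.319), where 6.67% of 15 types passed. Without Obese+enalapril 2 these last differences were -0.31 (limma, adjusted p = 0.0128) and -0.35 (limma, adjusted p = 0.00953). The T cells of Obese+enalapril 1 in this window had a median of 1261 UMIs, against 1519 to 1686 in the other animals.

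Mitochondrial transcripts, whose share tends to be high in damaged cells, took a low share of T cell UMIs. The median over all T cells was 5.02%, with single cells between 0% and 49.9%. By animal it was 3.74%, 0.185%, 4.26% and 4.02% in Lean 1 to 4, 7.20%, 8.81%, 4.03% and 5.40% in Obese 1 to 4, and 1.82%, 3.57% and 9.01% in Obese+enalapril 1 to 3. The lean animals other than Lean 2 were close to each other, and the treated animals spanned nearly the whole range. Means were 3.05% ± 1.92 (SD, n = 4), 6.36% ± 2.08 (SD, n = 4) and 4.80% ± 3.75 (SD, n = 3).

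In percentage points, the median differed by 3.31 ± 2.27 (SE) between obese and lean rats (limma, adjusted p = 0.386), where 5.56% of 18 types passed. It differed by -1.56 ± 2.45 between treated and obese rats (adjusted p = 0.683), where 0% of 19 types passed, and by 1.75 ± 2.45 between treated and lean rats (adjusted p = 0.875), where 5.26% passed. The difference between treated and obese rats was -3.66 without Obese+enalapril 3 and -0.0679 without Obese+enalapril 1. T cells ranked from 11th to 17th highest in mitochondrial share among the 17 to 20 types with at least 20 cells in an animal. Compared with monocytes of the same animal, T cells had a higher median in 10 of 11 animals, by 0.184 to 2.46 points, and a lower one in Lean 2, by -0.798 points. This difference was 0.184 to 0.344 points in treated and 0.373 to 2.46 in obese rats, without overlap (exact permutation p = 0.0571, adjusted p = 0.171). Lean rats overlapped both. The monocyte reference was chosen after the values were seen, and other cell types were not set against it. T cells with at least 20% mitochondrial UMIs made up 12.2%, 0%, 14.7% and 8.21% in Lean 1 to 4, 15.4%, 24.3%, 12.1% and 12.4% in Obese 1 to 4, and 2.87%, 9.94% and 21.0% in Obese+enalapril 1 to 3.

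**Figure D3:**
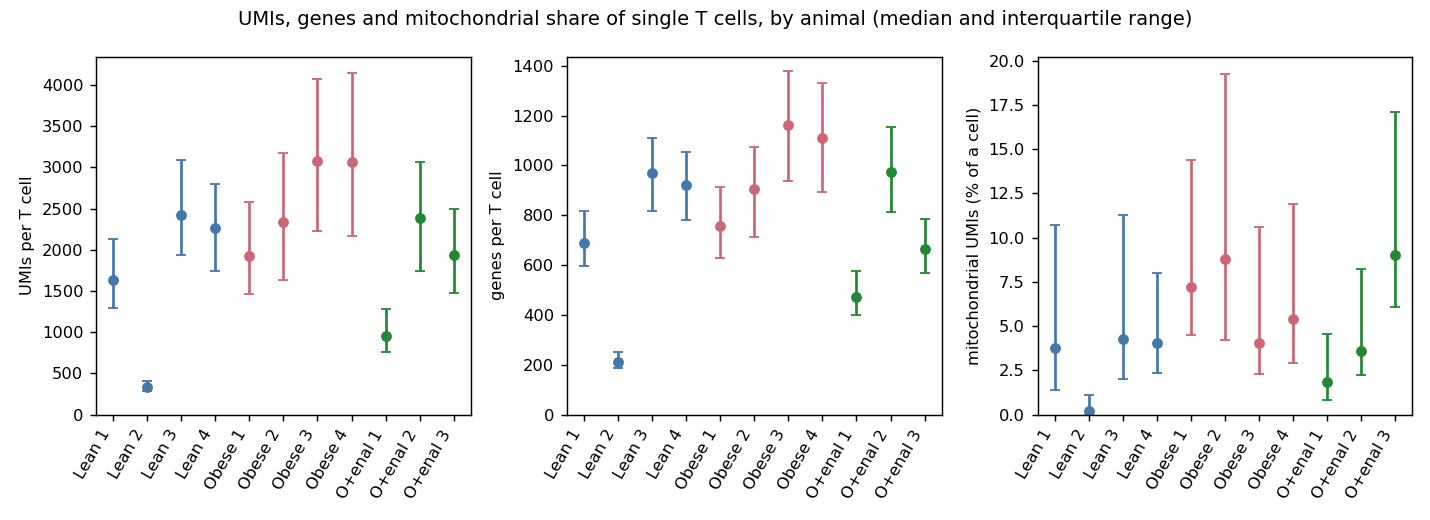
UMIs per T cell (left), genes per T cell (middle) and mitochondrial share of UMIs (right) in each animal, as the median and interquartile range of single cells (O+enal is Obese+enalapril). Lean 2 is lowest in every panel (328 UMIs, 210 genes, 0.185%), and Obese+enalapril 1 is second lowest.

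The authors' cell cycle phase calls placed most T cells in G2M, the stretch before and at division. The percent called G2M was 59.7, 41.4, 57.1 and 56.8 in Lean 1 to 4, 60.5, 58.8, 62.9 and 59.6 in Obese 1 to 4, and 53.5, 57.8 and 64.1 in Obese+enalapril 1 to 3. Among types with at least 20 cells in an animal, T cells had the highest G2M share in 7 of 11 animals and the second highest in the other 4. T cells had the lowest G1 share of these types in 8 of 11 animals. The G2M share was also high in B cells, with means of 58.9% in obese and 48.7% in treated rats, against 60.5% and 58.4% of T cells. No lean animal had enough B cells to be ranked. Mono/Macro cells had 52.1% in the 2 lean animals with enough of them, 51.1% in obese and 51.5% in treated rats. These calls compare scores that lie close to 0, with medians of 0.0175 to 0.0468 for the G2M score, so no cycling is read from them.

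No difference between the groups in phase shares passed the test. Between obese and lean rats the G2M share differed by 6.73 ± 3.69 points (limma, adjusted p = 0.207), where 5.56% of types passed, and by 2.62 without Lean 2. It differed by -2.02 ± 3.98 between treated and obese rats (adjusted p = 0.928) and by 4.71 ± 3.98 between treated and lean rats (adjusted p = 0.577), where 0% passed. Among T cells with 1000 to 2000 UMIs, which leaves out Lean 2, the first of these was -0.979 and the second 2.22. The percent called S, the phase of DNA synthesis, was 30.3, 19.7, 30.6 and 35 in Lean 1 to 4, 29.1 to 31.3 in obese and 26.8 to 33.1 in treated rats. It differed by 1.51 ± 5.46, -1.23 ± 5.90 and 0.27 ± 5.90 points in the same order of comparisons (limma, adjusted p = 0.881, 0.935 and 0.963), where 0% of types passed.

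A small tail of T cells had a high score, taken here as an S or G2M score over 0.2. It held 4.85%, 14.0%, 3.36% and 3.57% of T cells in Lean 1 to 4, 3.76%, 2.81%, 3.37% and 3.17% in Obese 1 to 4, and 3.98%, 3.41% and 3.797% in Obese+enalapril 1 to 3. Apart from Lean 2, whose share rests on 22 of 157 cells (exact Clopper-Pearson 95% interval 8.99% to 20.4%), the animals lay within a narrow band and the groups overlapped. Among types with at least 20 cells in an animal, the share was the highest in 8 of 11 animals and the second highest in the others. The group means were 6.45% ± 5.08 (SD, n = 4) in lean, 3.28% ± 0.394 (SD, n = 4) in obese and 3.73% ± 0.291 (SD, n = 3) in treated rats. Lean 2 raised the lean mean, since the other lean animals had 3.36% to 4.85%. In the same order of groups, macrophages had 0.979%, 2.54% and 2.35%, and monocytes 0.107%, 0.0239% and 0.201%. Mono/Macro cells had 0% in the 2 lean animals with enough of them, 1.70% in obese and 4.20% in treated rats, the last above the T cell mean. B cells had 0.386% in obese and 0.990% in treated rats. Cells with both scores over 0.2 made up 0.859% to 2.38% of T cells. The threshold was set after the scores were seen, and none of these shares was tested.

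On the authors' map of all cells, which places cells of like expression near each other, T cells formed 1 region with a broad body and an arm that ends in a tip. Of the 12698 T cells, 12091 (95.2%) had only T cells as their nearest 15 neighbours. The density along the first map coordinate, with animals weighted alike, was lowest at 6.875 between the body and the arm, and cells above that value are called the arm here. It was lower still before the tip, with 0.867% of T cells in the step from 9.75 against 2.24% in the step from 6.75. The table gives no finer cluster names, so body and arm are stretches of a map and not cell types. They were drawn after the map was seen, so what follows is a description with no test.

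The arm held a larger part of the T cells in lean than in either obese group. It held 54.3%, 45.2%, 59.5% and 47.1% of T cells in Lean 1 to 4. In Obese 1 to 4 it held 32.0%, 34.9%, 37.0% and 32.1%, and in Obese+enalapril 1 to 3 39.3%, 32.8% and 38.6%. Every obese and every treated animal lay below every lean animal, and treated and obese animals overlapped. The means were 51.5% ± 6.58 (SD, n = 4) in lean, 34.00% ± 2.39 (SD, n = 4) in obese and 36.9% ± 3.59 (SD, n = 3) in treated rats. The tip, above a coordinate of 10, held 8.24%, 14.6%, 22.3% and 14.6% of T cells in Lean 1 to 4, against 3.63% to 6.73% in obese and 4.304% to 6.33% in treated rats. Its cells are counted in the arm. The mean tip share differed by -10.2 points between obese and lean rats, where the whole arm differed by -17.5. Between treated and lean rats these values were -9.55 and -14.6 points. With the tip left out of the arm, lean animals overlapped both other groups.

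**Figure D4:**
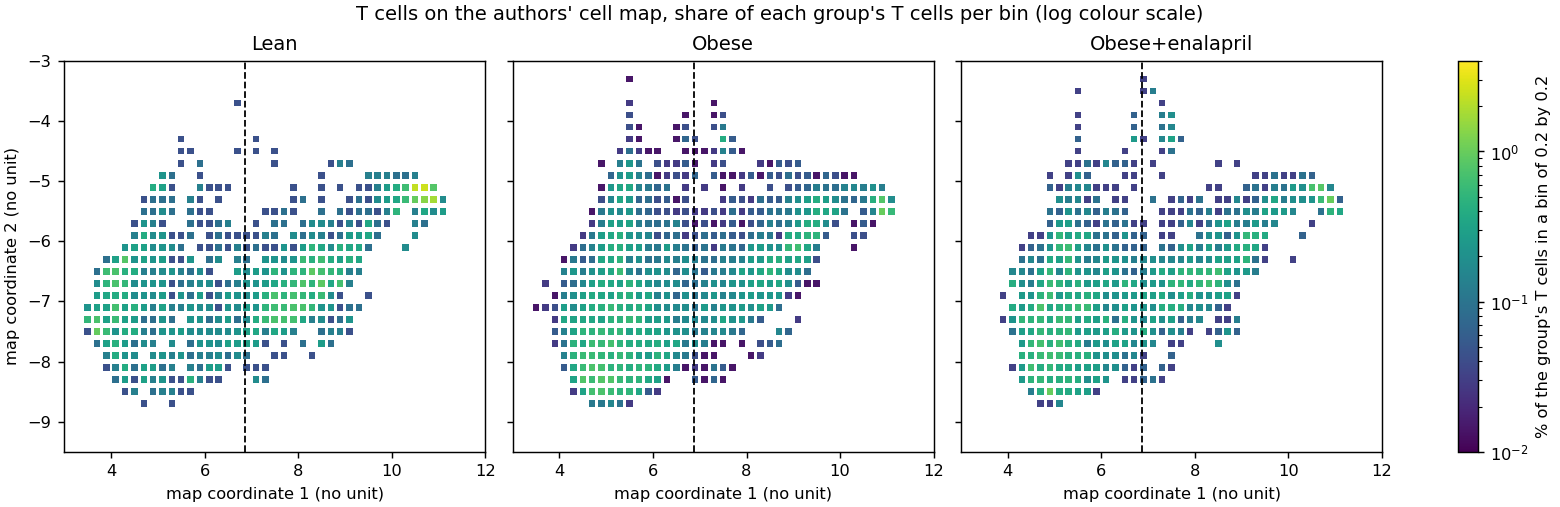
T cells on the first and second coordinates of the authors' map (no unit), pooled over the animals of each group and coloured by the % of the group's T cells in each bin on a log scale. The dashed line is the split at 6.875, and the right-hand tip is densest in lean rats, where it holds 8.24% to 22.3% of an animal's T cells. Cells outside the drawn range are not shown.

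Set against all cells, the body carried most of the difference between obese and lean kidneys. Body T cells were 4.48%, 2.03%, 3.91% and 2.29% of all cells in Lean 1 to 4. They were 10.3%, 9.19%, 10.2% and 9.87% in Obese 1 to 4 and 4.59%, 6.37% and 6.22% in Obese+enalapril 1 to 3. No group overlapped another, with obese animals highest, treated animals between and lean animals lowest, although Lean 1 (4.48%) and Obese+enalapril 1 (4.59%) were nearly level. The means were 3.18% ± 1.20 (SD, n = 4), 9.90% ± 0.515 (SD, n = 4) and 5.73% ± 0.987 (SD, n = 3) in lean, obese and treated rats.

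Arm T cells followed another order. They were 5.32%, 1.68%, 5.74% and 2.04% of all cells in Lean 1 to 4, 4.88%, 4.93%, 5.98% and 4.66% in Obese 1 to 4, and 2.98%, 3.11% and 3.91% in Obese+enalapril 1 to 3. Lean and obese animals overlapped, since Lean 1 and Lean 3 lay among the obese values, and all treated animals lay below all obese animals. The means were 3.69% ± 2.13 (SD, n = 4), 5.11% ± 0.589 (SD, n = 4) and 3.33% ± 0.505 (SD, n = 3). Per 100 non-immune cells the body counted 2.20 to 5.43 in lean, 14.8 to 15.6 in obese and 5.38 to 7.93 in treated rats, and the arm 1.82 to 7.13, 7.04 to 9.16 and 3.49 to 4.99. On that scale lean and treated animals overlapped for the body.

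**Figure D5:**
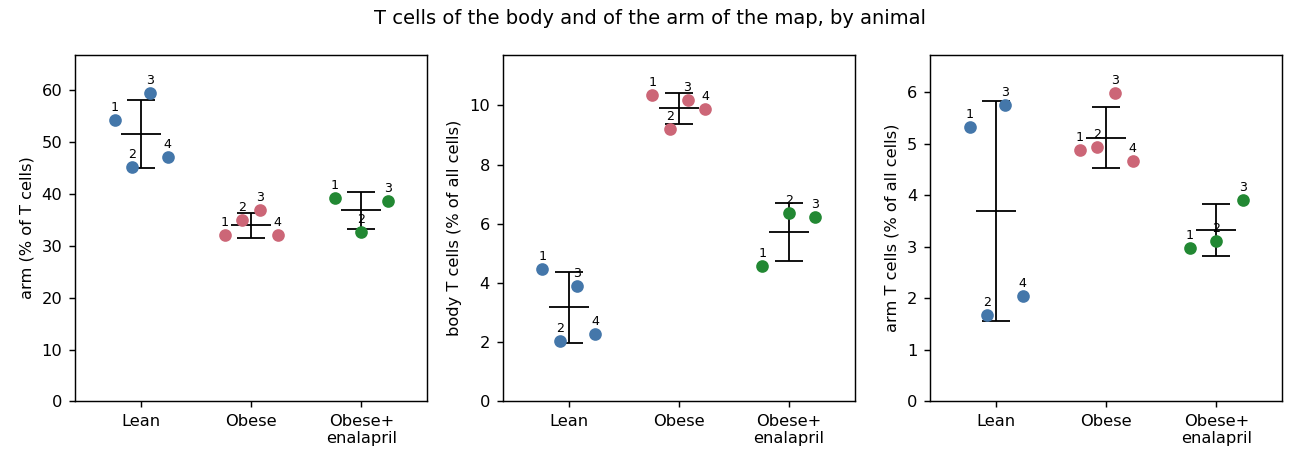
Arm T cells as % of T cells (left), body T cells as % of all cells (middle) and arm T cells as % of all cells (right), by animal, with bars for the group mean ± SD. Lean animals lie highest on the left (45.2% to 59.5%), and obese animals lie highest in the middle (9.19% to 10.3%).

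Arm and body cells differed in measures other than their position. The median mitochondrial share was lower in the arm than in the body in all 11 animals, for example 2.89% against 5.07% in Lean 1, 6.44% against 7.70% in Obese 1 and 8.26% against 9.49% in Obese+enalapril 3. The share of cells with a high S or G2M score was higher in the arm in all 11 animals, at 4.07% to 22.5% against 1.04% to 6.98% in the body. The share called G2M was also higher in the arm in all 11. Median UMIs were higher in the arm in 4 of 4 lean and 2 of 3 treated animals, and lower in 4 of 4 obese animals. The map and these measures come from the same expression values, so these differences are not independent of how the map was made.

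Since depth and mitochondrial share differed between arm and body, the share in the arm was also taken within ranges of each. Between obese and lean rats it differed by -17.5 points over all T cells, by -22.4 among those with at least 1000 UMIs and by -29.8 among those with 2000 to 4000 UMIs. Among those with 1000 to 2000 UMIs the difference was -8.50 points and the groups overlapped. Lean 2 has no cell in any of these depth ranges, so they compare 3 lean with 4 obese animals. Among cells with under 5% mitochondrial UMIs the difference was -18.0 points with no overlap. Between treated and lean rats it was -14.6 points over all T cells, -5.99 with overlap at 1000 to 2000 UMIs, -22.8 at 2000 to 4000 UMIs and -12.8 with overlap under 5% mitochondrial UMIs.

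A few cells named T cell lay among other cell types on the map. In 141 T cells (1.11%), under 50% of the nearest 15 neighbours were T cells. Proximal tubule types led their neighbours, with PCT for 48, PCT/PST for 29 and PST for 24 of these cells. Their median, pooled over animals, was 2540 UMIs, 1054 genes and 12.4% mitochondrial UMIs, against 2222, 876 and 4.99% for the other T cells. The mix of animals differs between these sets of cells, which were not compared within animals. Cells lying among other types made up 3.18% of T cells in Lean 2 (only 5 of 157) and 3.09% in Obese+enalapril 1 (42 of 1358), the 2 shallow libraries. Their share was 0.269% to 1.33% in the other 9 animals. The sources used here do not say how doublets were treated, and whether these cells are doublets was not tested.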

How the data were processed

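The table used here was deposited by the authors, with a line for each of 114615 cells, and holds no gene values. For every cell the authors deposited raw counts of UMIs and of genes. The mitochondrial share is a percent deposited by the authors. S and G2M values and map coordinates are scores deposited by the authors, with phase calls and cell type names. Tools named without a role in the submitters' processing notes are Seurat 4.3.0 and Cell Ranger 7.0.1, with the build rn6. The sources used here do not give the filters, doublet removal, clustering or naming.

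T cells were taken by the authors' name, and animals and groups from the sample code and the labels. The labels give no date or batch. Sample codes have 2 stems in each group and none shared between groups, so no comparison of groups within a stem was possible, and the meaning of the stems is unknown. T cells numbered 157 to 2678 per animal, so counting error relative to the number of T cells is largest in Lean 2. The members and the lists of types were chosen with earlier results of these data known. T cells and the other 4 immune types are named whatever their result, and other types only where a count needs them.

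Cells per type and animal were tested with edgeR 4.0.16 (quasi-likelihood, robust, no trend) in 1 fit over 3 groups. The library size was all cells (20 types with a mean of at least 10 cells per animal), immune cells or non-immune cells. SE was derived from the fold change and its F statistic. Medians and percents per type, from at least 20 cells, were compared with limma 3.58.1, and ratios with exact two-sided permutation tests. Adjustment was by Benjamini-Hochberg over types within a comparison, or over the 9 ratio tests, at 0.05. Scripts were tested on simulated data. Alternatives were DESeq2 1.42.0, TMM, limma on logit shares, other filters on cells and types, a replicate block and leaving out each animal. Scripts ran under R 4.3.3 and Python 3.11.15 with scipy 1.17.1, pandas 2.3.3, numpy 2.4.6 and matplotlib 3.10.9.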

Additional observations from a re-analysis of the deposited data

Results flagged for a closer look

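Lean 2 stood apart from the other 3 lean animals in 4 of the 16 T cell measures that were given Dixon's test of a far value in lean rats. No obese animal did so in the same 16 measures, and treated rats were too few for this test. Chance alone marks about 1 in 20 sets, and the measures of 1 animal are not independent. The median mitochondrial share of its T cells was 0.185%, against 3.74% to 4.26% in the others. Its T cells were called G2M in 41.4%, against 56.8% to 59.7%. A high S or G2M score was found in 14.0% of them, against 3.36% to 4.85%. Those lying among other cell types on the map made up 3.18%, which is only 5 cells, against 0.269% to 0.733%. T cells of the same animal had a median of 328 UMIs, against 1633.5 to 2423 in the other lean animals, and the part of depth in these values was not tested.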

How the results depend on the processing

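Of 522 alternatives, the direction and side of the threshold were kept in 368 that leave out an animal and 113 others. The cause of the changes below was not tested, beyond the smaller number of animals or cells. Leaving out 1 animal, the share of all cells in obese against lean rats ran from 0.92 to 1.35, and T cells against non-immune cells in treated against obese rats from -1.17 to -0.91. Ranges that crossed 0 for treated against lean rats were -0.035 to 0.084 (share of immune cells), -0.34 to 0.72 (UMIs), -0.34 to 0.42 (genes), -0.355 to 3.24 (mitochondrial points), -2.78 to 2.31 (S points), -0.002882 to 0.53 (monocyte ratio) and -0.13 to 0.64 (macrophage ratio). For treated against obese rats they were -4.83 to 0.470 (G2M points), -0.17 to 0.63 (B cell ratio) and -0.38 to 0.39 (macrophage ratio), and for obese against lean rats -1.55 to 3.54 (S points) and -0.13 to 0.001311 (genes at 1000 to 2000 UMIs). Genes at matched UMIs ran from -0.31 to -0.073 for treated against obese and from -0.35 to -0.12 for treated against lean rats.

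With cells of at least 1000 UMIs, the share of all cells differed by 0.93 between obese and lean rats (edgeR, adjusted p = 0.125), the S share by -0.893 points between obese and lean and by -2.19 between treated and lean rats, and the high-score share by 0.750 between treated and lean rats. Lean 2 entered the fit of the share of all cells with 0 T cells. Under the median mitochondrial percent of all cells (9.60), the share of all cells was 1.23 (obese against lean, adjusted p = 0.0624), the share of immune cells -0.000644 (treated against lean) and T cells against non-immune cells -1.09 (treated against obese, adjusted p = 0.132). At 1000 to 2000 UMIs, G2M differed by -0.979 (obese against lean) and 2.22 (treated against obese) and S by -1.93 (treated against lean). At 2000 to 4000 UMIs, genes differed by 0.10 (obese against lean). Relative to monocytes, the mitochondrial median differed by -0.0335 (treated against lean), and with a score over 0.1 the high-score share differed by -0.753 (treated against obese). The exact permutation test against non-immune cells gave 1.66 and -1.06, each with adjusted p = 0.0857. Settings at 1000 to 2000 UMIs for phases, the exact test, the monocyte reference and all map and high-score settings were chosen after seeing the data.

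Fits with the replicate number as a block changed no call: the share in obese against lean rats was 1.22 ± 0.33 (edgeR, adjusted p = 0.0175). Correlations between same-numbered animals ran from -0.444 to 0.516 over 10 pairs, 5 of them over 0.1, and whether such animals deviate together was not tested. The planned shares of finer T cell clusters were not run, since the table used here holds no finer cluster column. Counting error relative to the number of T cells is largest in Lean 2, with 157 T cells.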
